A study of Arabidopsis thaliana with 11 samples.

Results

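The genes described here encode ribosomal proteins, chiefly those of the cytosolic ribosome, in Arabidopsis inflorescences that were induced to form flowers. They were chosen by wording alone: gene descriptions with "ribosomal protein" and without 50S, 30S, chloroplast, plastid, mitochond, kinase or methyltransferase. This gave 298 of the 20971 genes in the table, and 20 of the 318 genes with "ribosomal protein" were left out by those words. RNA was sequenced from Landsberg inflorescences of plants with an AP1 fusion to the glucocorticoid receptor under the AP1 promoter (pAP1:AP1-GR) in the ap1-1 cal-1 double mutant. Plants of every day, day 0 included, carried this transgene and both mutations, and dexamethasone (DEX) lets the fusion protein enter the nucleus. There were 3 libraries of day 0, collected before treatment, and then 2 of day 2, 3 of day 4 and 3 of day 8 of daily DEX, each from a pool of inflorescences. No untreated plants were sampled after day 0, so days of DEX, plant age and floral stage cannot be told apart.

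The cytosolic ribosome translates mRNA into protein, and its small and large subunits are built from ribosomal RNA and many small, mostly basic proteins. In Arabidopsis each such protein is encoded by a family of similar gene copies, called paralogs. Growing tissue needs many ribosomes, and mutants in single ribosomal protein genes are known for pointed leaves, altered leaf polarity and embryo arrest.

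The wording covered more than the cytosolic ribosome, so each of the 298 genes was placed by annotation. The cytosolic ribosome held 186 genes in 79 sequence families: 147 were placed by the location note of the annotation, 24 by their sequence family, 12 by a list of known members and 3 by their description. Of the 186, 106 encoded proteins of the large subunit and 80 of the small subunit. Nuclear genes for plastid ribosomal proteins made up 28 of the 298. The other 84 carried a ribosomal protein name without such a placement, among them 10 described as elongation factors and 7 with a mitochondrial location note. The classes are given apart below.

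The promoters of 6 genes are printed because their genes stand for the patterns that follow: the gene with the highest level, a pair of S5 paralogs and a pair of L13p paralogs that changed unequally, and RPL3A, whose day 8 level was close to that of day 0. Each is the stretch of 250 bases before the gene start, taken from RefSeq (TAIR10.1, nuclear sequence as in TAIR10) and written along the strand of the gene. Capitals mark AAACCCTA (the telo-box), TGGGCC or TGGGCT on either strand, letters known from plant ribosomal protein promoters, and matches may overlap. The stretches are chr3:22268438-22268687 on the plus strand for AT3G60245, chr3:3779546-3779795 on the minus strand for RPS5A (AT3G11940), chr2:15649472-15649721 on the minus strand for RPS5B (AT2G37270), chr3:9064275-9064524 on the plus strand for AT3G24830, chr4:7656595-7656844 on the minus strand for AT4G13170 and chr1:16266303-16266552 on the plus strand for RPL3A (AT1G43170).
AT3G60245: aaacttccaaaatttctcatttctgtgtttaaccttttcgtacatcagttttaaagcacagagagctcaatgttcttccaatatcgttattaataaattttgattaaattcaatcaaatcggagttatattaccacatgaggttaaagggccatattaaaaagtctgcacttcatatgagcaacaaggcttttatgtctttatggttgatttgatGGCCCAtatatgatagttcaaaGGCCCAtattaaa
RPS5A: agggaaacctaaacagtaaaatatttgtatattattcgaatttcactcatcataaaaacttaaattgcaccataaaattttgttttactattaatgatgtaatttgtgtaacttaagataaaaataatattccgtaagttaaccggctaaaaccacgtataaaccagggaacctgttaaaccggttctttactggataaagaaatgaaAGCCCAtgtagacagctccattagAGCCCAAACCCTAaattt
RPS5B: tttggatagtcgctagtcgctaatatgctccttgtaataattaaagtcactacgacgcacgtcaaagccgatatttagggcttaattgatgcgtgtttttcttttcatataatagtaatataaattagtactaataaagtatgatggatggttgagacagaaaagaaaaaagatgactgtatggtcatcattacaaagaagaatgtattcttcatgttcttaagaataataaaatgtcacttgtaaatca
AT3G24830: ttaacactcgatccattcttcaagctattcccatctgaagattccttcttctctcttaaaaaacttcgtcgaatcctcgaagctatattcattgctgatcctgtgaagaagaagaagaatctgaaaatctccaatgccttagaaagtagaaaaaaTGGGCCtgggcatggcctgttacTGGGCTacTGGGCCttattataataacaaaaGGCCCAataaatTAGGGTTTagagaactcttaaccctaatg
AT4G13170: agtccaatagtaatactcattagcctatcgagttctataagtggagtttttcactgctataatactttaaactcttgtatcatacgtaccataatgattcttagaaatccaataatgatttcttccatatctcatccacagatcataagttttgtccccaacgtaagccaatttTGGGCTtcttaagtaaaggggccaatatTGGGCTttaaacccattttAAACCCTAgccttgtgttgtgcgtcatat
RPL3A: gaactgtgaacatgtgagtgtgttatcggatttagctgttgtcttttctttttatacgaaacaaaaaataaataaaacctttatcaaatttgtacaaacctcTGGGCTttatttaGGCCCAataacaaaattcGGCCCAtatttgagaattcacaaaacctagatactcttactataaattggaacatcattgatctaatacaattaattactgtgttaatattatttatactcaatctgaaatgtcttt

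AAACCCTA was present in 36 of the 181 promoters of tested cytosolic genes (19.9%), against 685 of 18772 promoters over all tested genes with a RefSeq start (3.65%). TGGGCC or TGGGCT was present in 125 of the 181 (69.1%), against 4338 of 18772 (23.1%). In 48 cytosolic promoters (26.5%), RPS5B among them, none of the 3 motifs was found, against 74.7% over all tested genes. The plastid class had AAACCCTA in 3 of 28 promoters (10.7%) and TGGGCC or TGGGCT in 11 (39.3%). In the cytosolic promoters the matches to AAACCCTA lay a median of 29 bases before the start, and those to TGGGCC or TGGGCT a median of 56 bases. A match describes the letters only.

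Levels are FPKM, fragments per kilobase of transcript scaled to library size, already brought to 1 common distribution over the 11 libraries, so a lower share in some genes is matched by a higher share in others. Sequencing depth is unknown. Changes are differences of mean log2(FPKM + 1) from limma, fitted to the 19278 genes that reached 1 FPKM in 2 or more libraries, and "rose" or "fell" means a Benjamini-Hochberg adjusted p under 0.05 over all of them. Of the 298 genes, 292 were tested: 181 cytosolic, 28 plastid and 83 other. The 6 below the filter had mean levels of at most 0.35 FPKM, and the lowest means were those of the S5p copies AT1G58684 and AT1G58983, which hold identical values, and AT3G48130. Over all tested genes the pooled SD on the log2 scale was 0.338 at day 8 and 0.159 at day 0. As a check of the labelled stages, 6 floral organ identity genes summed to 24.5 to 35.6 FPKM at day 0, 90.5 to 99.7 FPKM at day 2, 381 to 390 FPKM at day 4 and 433 to 568 FPKM at day 8.

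Cytosolic ribosomal protein transcripts held a lower share of all FPKM at day 8 than on any earlier day. The share was 9.79% to 9.97% at day 0, 10.6% to 10.8% at day 2, 9.84% to 10.5% at day 4 and 5.37% to 6.01% at day 8. The 3 day 8 libraries lay below all others. The large subunit held 3.37% ± 0.205 at day 8 and 6.14% ± 0.0737 at day 0, and the small subunit 2.22% ± 0.161 at day 8 and 3.75% ± 0.0153 at day 0 (SD, n = 3 each). In bulk tissue, fewer cells of a type and less RNA per cell cannot be told apart.

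**Figure D1:**
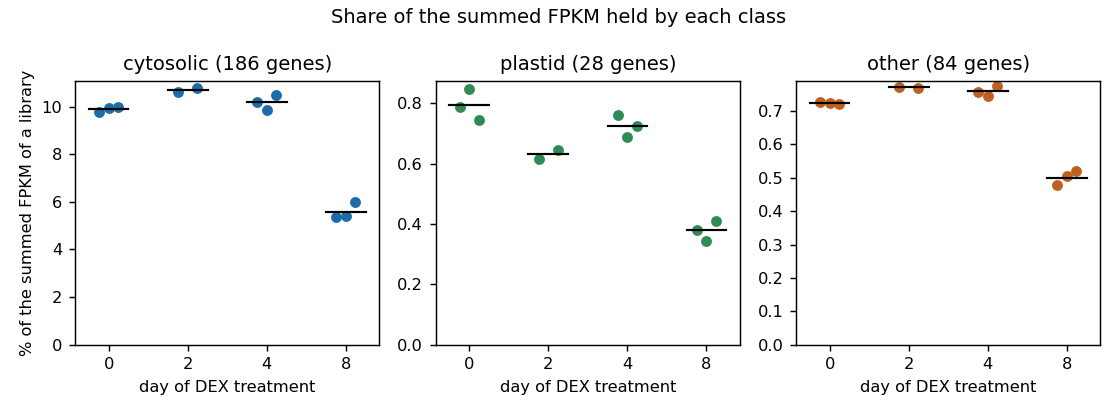
Share of all FPKM in a library (y, percent) held by the 186 cytosolic, 28 plastid and 84 other genes, by day of DEX treatment (x). Points are libraries and bars are means of 3, 2, 3 and 3 libraries. In each class the 3 day 8 libraries lie below every other library.

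The highest mean level was that of AT3G60245, which encodes L37ae of the large subunit. It measured 1990, 2200 and 2200 FPKM at day 0, 1990 and 2380 FPKM at day 2, 1990, 1880 and 2200 FPKM at day 4 and 889, 916 and 1040 FPKM at day 8. Its day 8 values lay below all others (log2 change -1.17 ± 0.13 SE, adjusted p = 1.12e-05 in limma, day 8 against day 0). AT5G20290, an S8e gene of the small subunit, measured 1110, 1110 and 1280 FPKM at day 8, against 1750, 1750 and 1750 FPKM at day 0 (log2 change -0.59). Next came AT1G02780 (L19e), AT2G34480 (L18ae), AT5G56710 (L31e) and AT1G69620 (L34e), with log2 changes of -0.83, -1.04, -0.68 and -0.94. Day 8 and day 0 did not overlap in any of these 6 genes, and all 6 fell. Because the libraries share 1 common distribution, genes of equal rank have equal values. Repeated values such as 1750 FPKM therefore do not measure how closely the pools agree, and the SE of such genes may be too small.

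The first comparison addresses the early response, 2 days after the start of DEX. No cytosolic gene passed the limma test, where 0.482% of all tested genes rose and 0.348% fell (0.244% and 0.0934% by at least 2-fold). At an unadjusted p under 0.05 there were 22 of the 181 (12.2%), a share near the 11.3% of all tested genes. The small differences lay mostly on one side: 170 of the 181 had a higher fitted level at day 2 than at day 0, with a median log2 change of 0.12, against 0.00 over all tested genes. In 94 of the 181 the day 2 libraries lay above every day 0 library and in 2 below, against 18.9% and 18.1% of all tested genes. Day 2 has only 2 libraries.

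The plastid genes lay on the other side. All 28 had a lower fitted level at day 2 than at day 0, with a median log2 change of -0.33. In 27 the day 2 libraries lay below every day 0 library, against 18.1% of all tested genes. AT4G17560, described as L19 family, measured 69.1 and 86 FPKM at day 2, against 118, 120 and 111 FPKM at day 0, and it fell (log2 change -0.59 ± 0.107 SE, adjusted p = 0.0371 in limma). AT1G79850 (PRPS17), the plastid S17 protein, measured 456 and 397 FPKM at day 2, against 619, 589 and 524 FPKM at day 0 and did not pass the test (limma adjusted p = 0.118). Of 10 photosynthesis genes, 2 fell, where 0.348% of all tested genes did, with a median log2 change of -0.72. These 10 summed to 4690 to 5950 FPKM at day 2, against 8420 to 9010 FPKM at day 0 and 6400 to 13100 FPKM at day 4. Their part in the plastid ribosomal values was not tested.

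The only further call at day 2 was AT1G53560 of the other class, described as L18ae family. It measured 10 and 8.58 FPKM at day 2, against 17.1, 15.6 and 17 FPKM at day 0, and it fell (log2 change -0.77 ± 0.119 SE, adjusted p = 0.023 in limma). With 1 library left out, the log2 change stayed between -0.87 and -0.67 for AT1G53560 and between -0.74 and -0.43 for AT4G17560, while the number of calls changed: 0 of the 292 were called without any 1 of the day 0 libraries or without day 2 replicate 1. There was 1 call without day 2 replicate 2, day 4 replicate 2 or day 4 replicate 3, while leaving out the second or the third day 8 library gave 5 and 4 calls.

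**Figure D2:**
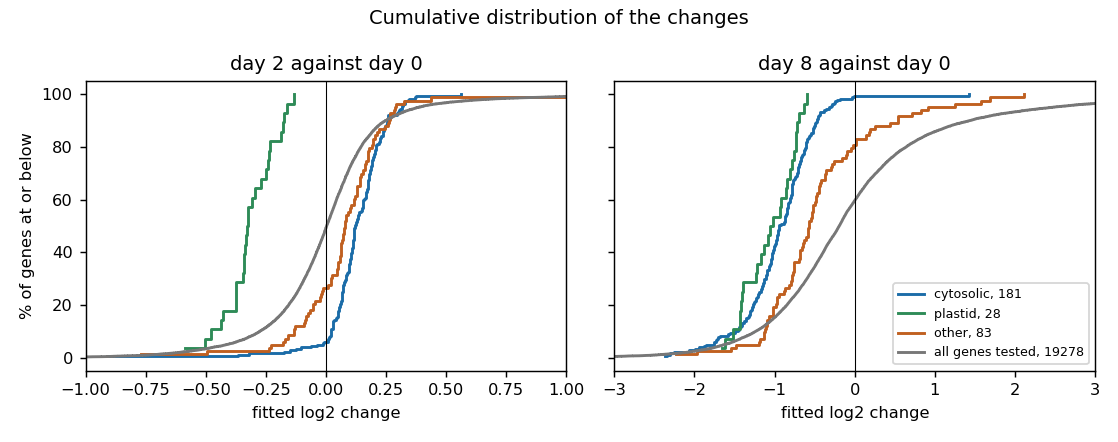
Cumulative share of genes (y, percent) at or below a fitted log2 change (x) for the 181 cytosolic, 28 plastid and 83 other tested genes and all 19278 tested genes. The left panel, from -1 to 1, is day 2 against day 0 and the right panel, from -3 to 3, is day 8 against day 0. All 28 plastid genes lie below 0 in both panels, while 170 cytosolic genes lie above 0 at day 2 and 1 at day 8.

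At day 4 against day 2 no member passed the limma test, where 0.519% of all tested genes rose and 0.228% fell (0.301% and 0.0674% by at least 2-fold). At an unadjusted p under 0.05 there were 46 of 292 members (15.8%), against 13.4% of all tested genes. The median log2 change was -0.11 for the cytosolic and 0.17 for the plastid genes. Set against day 0, the day 4 medians were 0.03 and -0.08.

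At day 4 against day 0, 3 cytosolic genes rose and 1 fell, where 4.87% of all tested genes rose and 4.12% fell (1.59% and 0.617% by at least 2-fold). RPL3A, which encodes L3 of the large subunit, measured 844, 816 and 853 FPKM at day 4, against 581, 657 and 664 FPKM at day 0 (log2 change 0.40 ± 0.11 SE, adjusted p = 0.0451 in limma). The S4e gene AT5G58420 measured 596, 551 and 611 FPKM at day 4, against 424, 483 and 475 FPKM at day 0 (log2 change 0.35 ± 0.0864 SE, adjusted p = 0.0313 in limma). The L4 gene AT3G09630 rose as well (log2 change 0.33). The gene that fell was AT1G01100, for an acidic protein of the ribosomal stalk, the arm of the large subunit that binds elongation factors. It measured 731, 746 and 714 FPKM at day 4, against 1250, 889 and 957 FPKM at day 0 (log2 change -0.48 ± 0.126 SE, adjusted p = 0.0386 in limma).

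Outside the cytosolic class, 3 genes rose and 6 fell at day 4 against day 0. AT2G03130, described as L12 and as an adaptor of the Clp protease, measured 13.5, 22.5 and 30 FPKM at day 4, against 1.33, 1.05 and 1.02 FPKM at day 0 (log2 change 3.36 ± 0.303 SE, adjusted p = 0.000101 in limma). At day 8 it measured 3.62, 5.65 and 9.4 FPKM, above each day 0 value and below each day 4 value. The other rises were AT2G18110, an EF1B elongation factor gene, and AT3G58660 of the L1p/L10e family (log2 changes 0.35 and 0.34). The falls were the elongation factor genes AT3G12915 and AT5G12110 (-0.73 and -0.61), AT1G53560 (-0.73), AT4G22380 of the L7Ae/L30e family (-0.40) and the plastid genes AT4G17560 and AT5G40950 (-0.39 and -0.33). Of the 13 calls at day 4 over all classes, 2 to 6 were made with any 1 day 0 or day 4 library left out. Leaving out the second or the third day 8 library gave 21 and 22 calls.

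The day 8 comparisons address the stage at which floral organs grow. At day 8 against day 4, 178 of the 181 cytosolic genes fell and 1 rose, where 43.5% of all tested genes fell and 26.6% rose. Their median log2 change was -0.92, and 73 fell and 1 rose by at least 2-fold, where 11% and 12.5% of all tested genes did. At day 8 against day 2, 176 fell and 1 rose, where 42.8% fell and 27.2% rose over all tested genes, and 102 fell by at least 2-fold, where 13.8% fell and 13.8% rose that far.

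At day 8 against day 0, 175 of the 181 fell and 1 rose, where 45% of all tested genes fell and 29% rose. The median was -0.94, and 76 fell and 1 rose by at least 2-fold (15.2% and 14.2% of all tested genes). In 174 the day 8 libraries lay below every day 0 library and in 1 above, against 46% and 29.1% of all tested genes. The median over all tested genes was -0.19 at day 8 against either day 4 or day 0. With each library rescaled by its median ratio to the others it was -0.01, and the cytosolic median was then -0.74 against day 0. On that scale 170 of the 181 fell and 2 rose against day 0, where 36.1% of all tested genes fell and 36.3% rose, and the genes that fell at least 2-fold numbered 43 against day 0 (11.2% of all tested genes), 67 against day 2 (10.1%) and 37 against day 4 (7.78%). By subunit, 100 of 104 large subunit genes fell, with a median of -0.95, and 75 of 77 small subunit genes, with a median of -0.86. Among the 181, the highest mean was on day 2 in 131 genes (72.4%) and the lowest on day 8 in 179 (98.9%), against 21.9% and 54.6% of all tested genes.

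The cytosolic genes with the largest falls at day 8 against day 0 included less abundant copies of acidic stalk proteins and of L41, the shortest protein of the ribosome. The most abundant copies of the stalk families, AT2G27720, AT3G28500, AT1G01100 and AT5G57290, had log2 changes of -0.63, -0.96, -1.10 and -1.46. The most abundant L41 copy, AT3G11120, had -1.23. The stalk gene AT3G44590 measured 11, 12.6 and 9.34 FPKM at day 8, against 60.8, 58.1 and 58.9 FPKM at day 0 (log2 change -2.34 ± 0.118 SE, adjusted p = 4.7e-08 in limma). Another stalk gene, AT4G25890, measured 16.9, 18.3 and 17 FPKM at day 8, against 79.6, 81.8 and 68.1 FPKM at day 0 (log2 change -2.07). The groups did not overlap in either. The L41 gene AT3G56020 measured 35.4, 35.1 and 34 FPKM at day 8, against 230, 169 and 138 FPKM at day 0 (log2 change -2.30), and its copy AT2G40205 0, 2.79 and 0 FPKM at day 8, against 9.02, 6.43 and 6.02 FPKM at day 0 (log2 change -2.37). The proteins of the L41 copies are identical, so their split of reads is uncertain. AT5G60670, for L11p at the base of the stalk, measured 32.1, 45.7 and 44.5 FPKM at day 8, against 135, 155 and 154 FPKM at day 0 (log2 change -1.85). The most abundant L11p copy, AT2G37190, had a log2 change of -0.85.

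There were 5 tested cytosolic genes that did not pass at day 8 against day 0. RPL3A measured 647, 551 and 668 FPKM at day 8, against 581, 657 and 664 FPKM at day 0, with overlapping groups (log2 change -0.03 ± 0.11 SE, adjusted p = 0.812 in limma). AT3G13580, an L7 gene, averaged 205 FPKM at day 8 and 206 FPKM at day 0 (log2 change -0.01 ± 0.0785 SE). With median-ratio rescaling RPL3A had a log2 change of 0.17 (limma adjusted p = 0.115), and AT3G13580 rose (log2 change 0.20, limma adjusted p = 0.0234). The others were the S4-like gene AT5G15750, the S9p copy AT3G04230 and the L41 copy AT3G08520, with log2 changes of -0.22, -0.19 and -1.27. AT3G08520 held at most 1.3% of the L41 family at day 0. It held 0% in day 8 replicates 1 and 3 and 2.1% in replicate 2, so its change is uncertain.

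The 1 cytosolic gene that rose on the scale as deposited was RPL18AA (AT1G29970), described as L18A-1, with 56, 68.9 and 76.3 FPKM at day 8, against 22.6, 23.3 and 26.8 FPKM at day 0 (log2 change 1.42 ± 0.182 SE, adjusted p = 3.35e-05 in limma). Its neighbour AT1G29965, an L18ae gene, measured 29, 23.1 and 14.3 FPKM at day 8, against 102, 107 and 107 FPKM at day 0 (log2 change -2.25). Both genes lie on the minus strand of chromosome 1 and overlap, RPL18AA from 10498351 to 10501498 and AT1G29965 from 10498310 to 10499462, so both values are uncertain. The remaining L18ae copies, AT2G34480 and AT3G14600, fell (log2 changes -1.04 and -0.72).

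Paralogs could be compared in 63 cytosolic families with 166 tested genes. Families were built only from genes that matched the wording. Paralogs outside it, such as RPL10C beside RPL10A, therefore enter no share, rank or count of families given here and below. The leading paralog was taken as the one with the highest mean at day 2, a day that enters neither side of the comparison of day 8 with day 0. It had the highest log2 change of its family, mostly the smallest fall, in 37 families, the lowest in 15 and neither in 11. By size, it had the highest in 20 of 30 families of 2 paralogs, 14 of 27 families of 3 and 3 of 6 larger families. The count that a randomly picked paralog would give was not computed, nor was one for other gene families. The median log2 change was -0.79 over the 63 leading paralogs and -1.04 over the 103 others. The share of the leading paralog in its family was higher in all day 8 than in all day 0 libraries in 35 families, lower in 13 and overlapping in 15. Where the closest pair of proteins was under 95% identical, the leading paralog fell least in 12 of 19 families, and where it was at least 95% identical, in 25 of 44. Reads of near-identical copies may be split unevenly between them, so levels of such copies are uncertain.

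**Figure D3:**
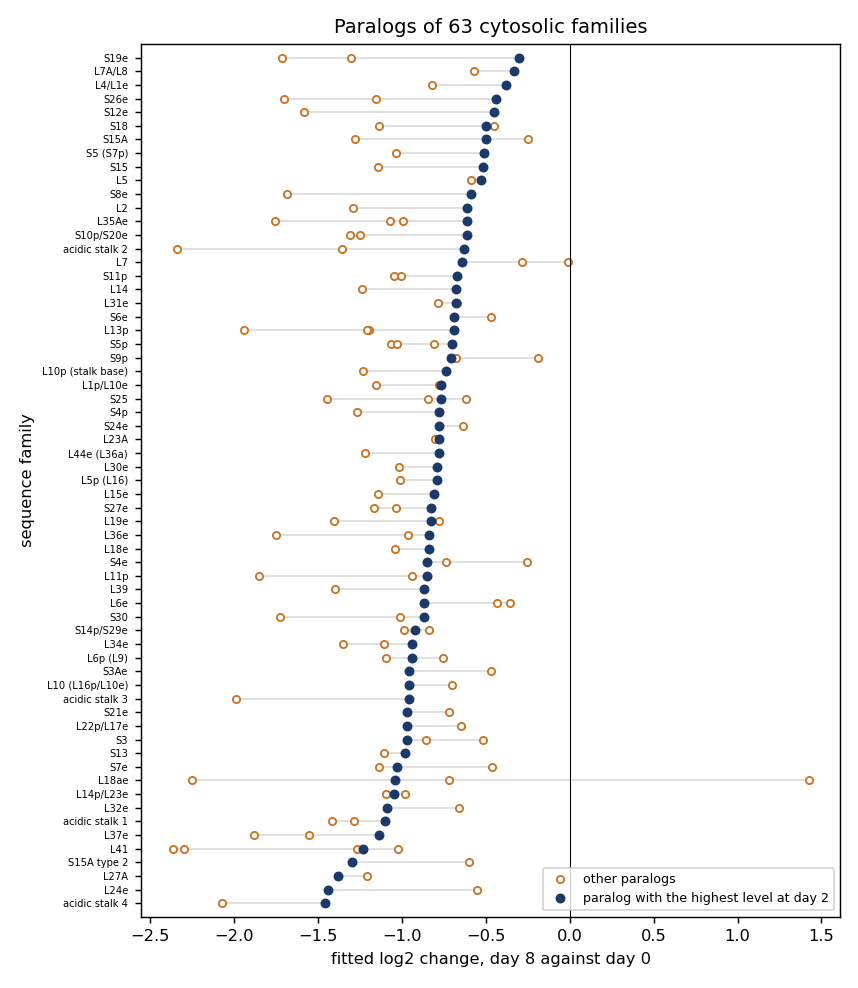
Fitted log2 change at day 8 against day 0 (x) for the tested paralogs of 63 cytosolic families (y), ordered by the change of the leading paralog. Filled points are the paralogs with the highest level at day 2 and open points the others. The filled point is the rightmost of its family in 37 families and the leftmost in 15.

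The families named next were chosen after their values were seen. In the S19e family of the small subunit, AT3G02080 measured 224, 223 and 255 FPKM at day 8, against 285, 292 and 286 FPKM at day 0 (log2 change -0.30). Its paralog AT5G61170 measured 48.6, 62.8 and 55 FPKM at day 8, against 177, 186 and 188 FPKM at day 0 (log2 change -1.72). AT3G02080 held 72.3% to 77.1% of the family at day 8, against 54.6% to 55.1% at day 0. In the S12e family AT1G15930 and AT2G32060 had log2 changes of -0.45 and -1.58, and AT1G15930 held 85.5% to 86.8% at day 8, against 71.7% to 76.1% at day 0. In the S26e family AT3G56340 held 77.8% to 81.2% at day 8, against 65.7% to 67.7% at day 0.

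The pairs whose promoters are printed also changed unequally. RPS5A measured 278, 301 and 318 FPKM at day 8, against 425, 441 and 413 FPKM at day 0 (log2 change -0.51). RPS5B measured 59.1, 66.6 and 63.4 FPKM at day 8, against 116, 134 and 141 FPKM at day 0 (log2 change -1.03). RPS5A, whose mutants are known for early embryo arrest, held 81.9% to 83.4% of its family at day 8, against 74.5% to 78.5% at day 0. The L13p genes AT3G24830 and AT4G13170 had log2 changes of -0.69 and -1.95, and both promoters hold AAACCCTA and at least 1 match to TGGGCC or TGGGCT.

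Over the 181 cytosolic genes, the median log2 change at day 8 against day 0 was -0.99 with AAACCCTA in the promoter (36 genes) and -0.92 without it (145 genes). It was -0.94 with TGGGCC or TGGGCT (125 genes) and -0.85 with neither (56 genes). These medians are descriptions without a test.

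By day means the leading paralog at day 8 was another than at day 0 in 7 families, but only in 2 of these, L24e and S3, did every library show it. In the other 5 (S15A type 2, L7, S3Ae, L18e and L27A) at least 1 library of day 8 or day 0 had the paralog of the other day in the lead. In the L24e family RPL24A (AT2G36620) measured 151, 147 and 172 FPKM at day 8, against 421, 424 and 432 FPKM at day 0 (log2 change -1.44). STV1 (AT3G53020), the L24 copy known for its part in gynoecium patterning, measured 231, 211 and 229 FPKM at day 8, against 300, 341 and 345 FPKM at day 0 (log2 change -0.55). RPL24A held 39.5% to 42.8% of the pair at day 8, against 55.4% to 58.4% at day 0. In the S3 family AT2G31610 held 32.1% to 36.5% at day 8, against 38.8% to 39.7% at day 0, and AT3G53870 held 37.6% to 38.8% at day 8, against 30.9% to 32.6% at day 0. In the L7 family AT2G01250 and AT2G44120 had log2 changes of -0.64 and -0.29.

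**Figure D4:**
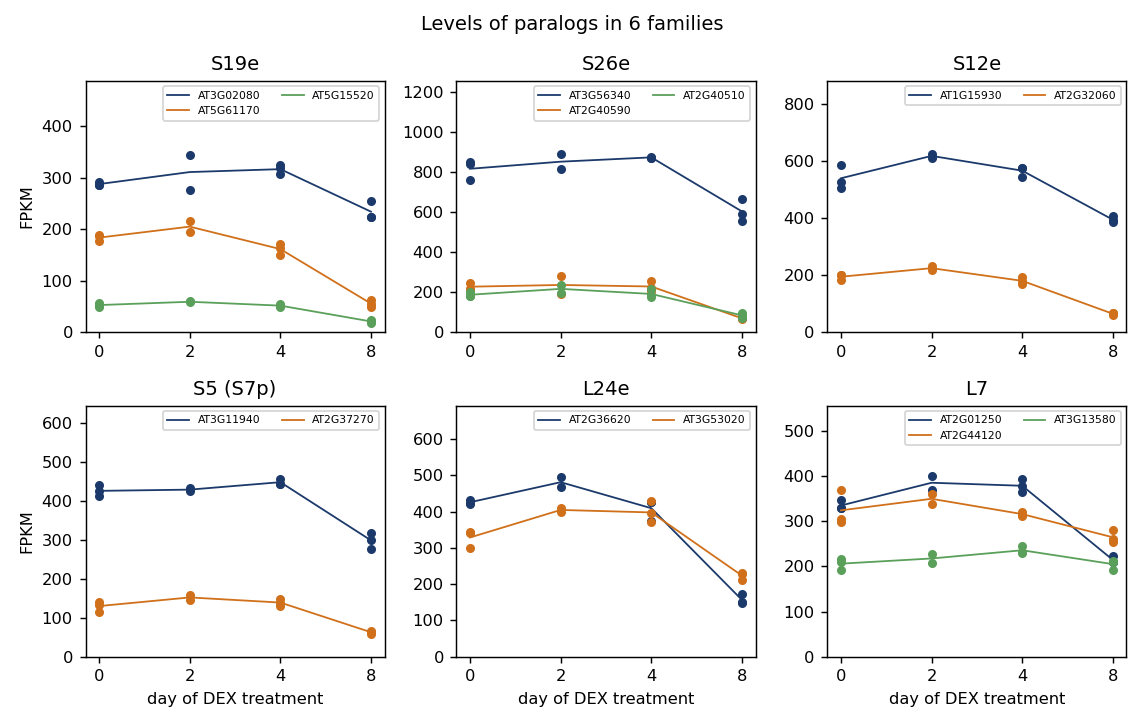
FPKM (y) of each tested paralog by day of DEX treatment (x) in 6 families. Points are libraries and lines join the day means. The most abundant paralog holds a larger share at day 8 than at day 0 in S19e, S26e and S12e, and in L24e another paralog leads in every day 8 library. In L7, AT2G44120 leads in all 3 day 8 libraries and also in 1 of the 3 day 0 libraries.

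Members known for developmental mutants also fell. Of 22 such members, 22 fell at day 8 against day 4 and 21 against day 0, the exception being RPL3A. These counts were near the share of the whole cytosolic class, of which 98.3% and 96.7% fell. Over all tested genes 43.5% and 45% fell. The median log2 change of the 22 against day 0 was -0.74, against -0.94 for the cytosolic class. The full list of known developmental genes holds 24, with RPL10C and RPL3B outside the wording. Against day 0, RPL10C rose and RPL3B fell (log2 changes 1.02 and -2.03), the highest and lowest of the 24. PGY1 (AT2G27530), whose mutants alter leaf polarity, measured 393, 325 and 411 FPKM at day 8, against 606, 638 and 676 FPKM at day 0 (log2 change -0.77). PFL (AT1G22780), an S18 gene named for pointed first leaves, measured 193, 218 and 224 FPKM at day 8, against 277, 299 and 294 FPKM at day 0 (log2 change -0.45). The groups did not overlap in either gene. PGY2 (AT1G33140, L9), PGY3 (AT3G25520, L5) and PFL2 (AT4G00100, S13) had log2 changes of -0.94, -0.53 and -0.98.

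The rest of these members had like values. RPS6A (AT4G31700) and RPS6B (AT5G10360), for the S6 protein that S6 kinases phosphorylate, had log2 changes of -0.69 and -0.47. The changes were -0.59 for RPL5B (AT5G39740), -0.96 for RPL10A (AT1G14320) and -0.70 for RPL10B (AT1G26910). RPL23AA (AT2G39460) and RPL23AB (AT3G55280) had -0.78 and -0.80, and the L4 genes AT3G09630 and AT5G02870 -0.38 and -0.82. The L8 gene AT2G18020 had -0.61 and the L27A gene AT1G70600 -1.38, the lowest of the 22.

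Level and change are set side by side by the mean level at day 2. Cytosolic genes with at least 400 FPKM had a median log2 change at day 8 against day 0 of -0.80 (86 genes), and those at 150 to 400 FPKM, 50 to 150 FPKM and 1 to 50 FPKM of -1.06 (57 genes), -1.24 (20 genes) and -1.03 (17 genes). Genes outside the 298 had medians of -0.74 (106 genes), -0.58 (501 genes), -0.40 (2421 genes) and -0.17 (14659 genes) at the same levels. The medians of cytosolic genes and of genes outside the 298 lay closest to each other in the highest of these 4 ranges. The genes outside the 298 still include ribosomal protein genes of other wording. In the highest range these include AT3G06700, AT4G15000 and AT3G05560, with means of 2710, 539 and 441 FPKM at day 2. Their part in the medians was not tested.

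**Figure D5:**
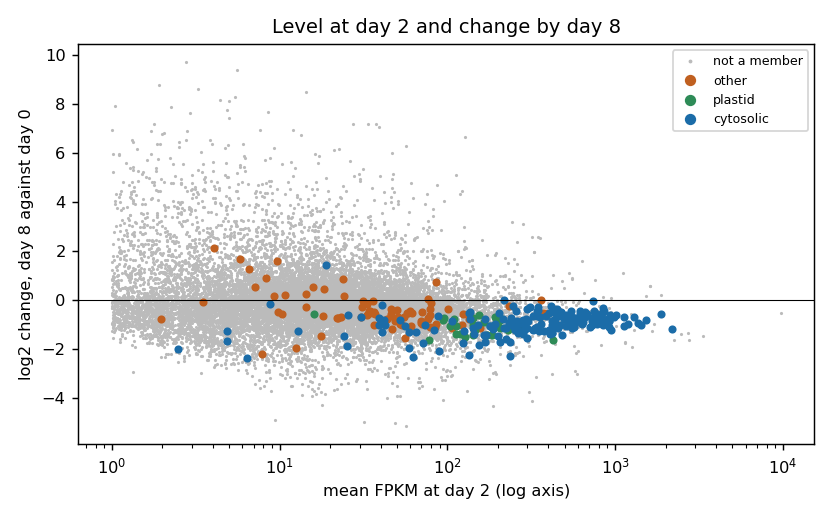
Mean FPKM at day 2 (x, log axis) and fitted log2 change at day 8 against day 0 (y) for tested genes with at least 1 FPKM at day 2. Blue points are cytosolic, green plastid and orange other members, and grey points are genes outside the 298. The blue points lie below 0 except for RPL18AA.

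All 28 plastid genes fell at day 8 against day 4 and against day 0, where 43.5% and 45% of all tested genes fell. Their medians were -0.93 and -1.04. PRPS17 measured 179, 176 and 195 FPKM at day 8, against 619, 589 and 524 FPKM at day 0 (log2 change -1.65 ± 0.0988 SE, adjusted p = 1.34e-07 in limma). AT1G05190 (L6 family) measured 168, 148 and 171 FPKM at day 8, against 394, 376 and 305 FPKM at day 0 (log2 change -1.13). The highest mean was on day 0 in 27 of the 28, against 27.7% of all tested genes. The lowest was on day 8 in all 28, against 54.6%. The photosynthesis genes, of which 8 of 10 fell, summed to 3490 to 4770 FPKM at day 8, against 8420 to 9010 FPKM at day 0, and their part in these falls was not tested.

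Of the 83 other genes, 61 fell and 9 rose at day 8 against day 0, with a median of -0.57. Over all tested genes 45% fell and 29% rose. Among the 9 described as L18ae family or L34e superfamily, 7 rose and 1 fell, with a median of 0.54. AT4G26060 (L18ae family) measured 22.6, 26 and 20.6 FPKM at day 8, against 4.6, 4.64 and 4.35 FPKM at day 0 (log2 change 2.12 ± 0.126 SE, adjusted p = 1.3e-07 in limma). AT3G01170 (L34e superfamily) measured 31.9, 33.8 and 35.2 FPKM at day 8, against 9.44, 10.8 and 11.7 FPKM at day 0 (log2 change 1.58), and AT5G15260 had a log2 change of 1.25. Day 8 and day 0 did not overlap in these genes. The most abundant of the class were translation factors. LOS1 (AT1G56070), elongation factor 2, which moves the ribosome along the mRNA, measured 365, 309 and 329 FPKM at day 8, against 311, 340 and 343 FPKM at day 0 and did not pass (limma adjusted p = 0.904). The EF1B genes AT1G30230 and AT5G19510 fell (log2 changes -0.47 and -0.52), and AT3G12915, like elongation factor 2 in its description, had -2.23.

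Some genes of the cytosolic ribosome lie outside the wording. The 11 genes described in the form "Ribosomal L29e protein family" all fell at day 8 against day 0, with a median of -1.08. Of these, AT3G06700 averaged 975 FPKM at day 8 and 2510 FPKM at day 0, when it was above each of the 298. RPL10C (AT1G66580), a paralog of RPL10A, averaged 742 FPKM at day 8 and 365 FPKM at day 0, and it rose (log2 change 1.02). RPL3B (AT1G61580), the paralog of RPL3A, averaged 7.57 FPKM at day 8 and 33.9 FPKM at day 0 (log2 change -2.03).

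Genes that build and serve ribosomes were mostly lower at day 8. Over all tested genes 45% fell and 29% rose at day 8 against day 0, and 4.87% rose and 4.12% fell at day 4 against day 0. Of 37 ribosome biogenesis genes, 28 fell and 2 rose at day 8 against day 0, with a median log2 change of -0.45, and at day 4 against day 0, 6 rose and 0 fell, with a median of 0.22. CBF5, the pseudouridine synthase of ribosomal RNA, had -1.43, and the fibrillarin genes FIB2 and FIB1 had -2.16 and -0.04, FIB1 without passing the test. Of 27 translation factors, 22 fell and 1 rose, with a median of -0.52. Of 7 genes of the TOR pathway, which couples ribosome production to nutrients, 4 rose and 2 fell, and S6K2 averaged 111 FPKM at day 8 and 11 FPKM at day 0 (log2 change 3.12). Of 4 regulators, TCP20, which binds TGGGCC or TGGGCT in such promoters, rose (log2 change 0.97), and TRB1 and ANAC082 fell.

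All 10 genes of cell division and replication fell at day 8 against day 0, where 45% of all tested genes fell, with a median of -1.32. They summed to 548 to 617 FPKM at day 0, 635 to 666 FPKM at day 2, 575 to 613 FPKM at day 4 and 178 to 231 FPKM at day 8. Their part in the ribosomal protein values was not tested. Of 6 meristem genes, 3 rose and 3 fell at day 8 against day 0. These 6 summed to 310 to 408 FPKM at day 8, against 271 to 309 FPKM at day 0. Of 5 mature pollen markers 2 were in the table, and they summed to 0.87 to 1.76 FPKM at day 8, against 5.15 to 5.16 FPKM at day 0.

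Over the 4 days together, the limma F test called 279 of the 292 members, where 73.3% of all tested genes were called, and 145 with a range of at least 2-fold, where 32.8% were. By class these were 178 of 181 cytosolic genes (106 by 2-fold), 28 of 28 plastid genes (15) and 73 of 83 other genes (24).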

How the data were processed

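RNA-seq of 11 libraries (TruSeq Stranded Total RNA) was used. The submitters' notes name STAR, RSEM 1.2.22 and TAIR10, and the authors deposited FPKM per gene, brought to a common distribution. How genes were selected for the deposited table is not given in the sources used here. The deposited day means, p-value and FDR columns were not used. The sources differ on the DEX concentration. Values were fitted with limma 3.58.1 (R 4.3.3) as log2(FPKM + 1), with a variance trend, the 4 days as groups and 7 residual degrees of freedom. Benjamini-Hochberg adjustment was made per comparison. The fit was also run on simulated data with the same spread per gene on all days, whereas the spread in these data was larger at day 8. The simulation therefore cannot show how the fit behaves with unequal spread. Families joined proteins at least 60% identical over at least 70% of the shorter (BLAST+ 2.17.0). Replicates were separate pools, so p-values measure the spread between pools. The members and gene lists were chosen with earlier results of these data known. Named genes were the 5 largest rises and falls called per comparison, the 6 highest and 3 lowest means, known developmental members, families with a rise and a fall, and the 5 highest members outside the cytosolic ribosome, and others were chosen after their values were seen. Alternatives were a pseudocount of 0.1, no filter, median-ratio rescaling, array weights, a replicate block, day 8 left out, cytosolic genes alone, and each library left out.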

Additional observations from a re-analysis of the deposited data

How the results depend on the processing

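The day 8 calls kept within 1.5 times under a pseudocount of 0.1, no filter, array weights, the replicate block and each library left out. The 2-fold counts moved with median-ratio rescaling: among the 4 days 145 became 95, and at day 8 against day 4, day 2 and day 0 the counts of 101, 131 and 112 became 56, 86 and 64. For the cytosolic genes alone, 178 were called among the 4 days in place of 279, and 179, 177 and 176 at day 8 against day 4, day 2 and day 0 in place of 282, 274 and 274. Adding the 11 genes of other wording, chosen after seeing the data, gave 293 calls against day 4 and 285 against day 0.

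Calls among days 0, 2 and 4 depended on the fit. At day 2 against day 0, 2 calls became 9 with array weights, 16 with day 8 left out, 0 for the cytosolic genes alone, and 0 to 5 with 1 library left out. The 2-fold count of 0 became 1 with a pseudocount of 0.1, array weights or day 8 left out, and was 0 to 1 with 1 library left out. At day 4 against day 2, 0 calls became 8 with array weights, 16 with day 8 left out and 0 to 3 with 1 library left out, and the 2-fold count of 0 became 1 with array weights or day 8 left out, and 0 to 1 with 1 library left out. At day 4 against day 0, 13 calls became 64 with array weights, 38 with day 8 left out, 4 for the cytosolic genes alone and 2 to 22 with 1 library left out, and the 2-fold count of 1 became 0 for the cytosolic genes alone. The ratio of the summed FPKM of members at day 8 to day 0 was 0.567, and that of their median FPKM 0.462. The cause of these differences was not tested. For named genes, 1759 values under the alternatives kept the direction and the call and 79 kept the direction but not the call, and no called change turned round.

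Of 15 same-numbered pairs of libraries, 2 had deviations correlated over 0.1 (range -0.251 to 0.132). Of 30 different-numbered pairs, 5 did (range -0.204 to 0.251). Deviations from a mean of 2 or 3 libraries sum to 0 within a day. These values therefore cannot show whether replicate numbers pair the libraries. With the replicate block, 0 of the 292 were called at day 2 against day 0 and 9 at day 4 against day 0. Depth is unknown, so the counting error of genes near 0 FPKM could not be estimated here.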
